A study of Sus scrofa with 9 samples.

Results

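The 81 host genes described here are those whose name stood against 5 or more circular RNAs (circRNAs, here called circles) in the deposited pig circRNA count table. They gave 608 of the 3071 circles and made up 81 of the 1727 named hosts. Nothing but the number of entries per name chose them: 26 hosts had 5 circles and lay just inside the limit, and 66 hosts had 4 circles and lay just outside it. The study compared untreated porcine metaphase II (MII) oocytes, pronuclear (PN) embryos made by in vitro fertilization, and purified mature sperm, with 3 libraries deposited for each. The sequenced sperm came from Large White boars, whereas the methods name Landrace boars for the semen used in fertilization. The oocytes came from ovaries of postpubertal Long White gilts more than 8 months of age, collected at an abattoir. They were matured in vitro and stripped of cumulus cells before RNA was extracted from pools. The number of animals behind each library was not given in the sources used here, so p-values measure only the spread between these libraries, which may be technical.

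A circRNA forms when a downstream splice donor joins an upstream acceptor, so that 1 or more exons close into a ring without a cap or poly(A) tail. A host gene can yield several circles when different pairs of splice sites are used, and a circle can be told from its linear transcript only by the reads that cross the back-splice junction. Oocytes hold a large store of stable RNA made before ovulation, whereas mature sperm no longer transcribe and carry the RNA left from spermatogenesis.

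A pair of primers that read away from each other on the linear transcript gives a product only from a ring, and such primers were made for circRNA686, a circle of MAN1A2, which encodes a Golgi mannosidase. These 3 of its primers are shown because the study designed them against that circle, while the counts given for it come from sequencing; capitals mark the bases that the quantitative forward primer shares with the other primers, directly for the divergent forward primer and as the reverse complement for the divergent reverse primer, and the quantitative primer is in capitals throughout.
divergent forward: AAGTATTGCCGAGTCAgcagt
divergent reverse: TTCGATAGCcagtgctgct
quantitative forward: GCTATCGAAAAGTATTGCCGAGTCA
The quantitative primer is 25 bases long. It is the 9-base reverse complement of the start of the divergent reverse primer followed by the first 16 bases of the divergent forward primer, so it spans the place where these primers abut. The position of the back-splice joint was not located. circRNA686 itself had 0, 2 and 1 counts in the MII oocyte libraries and 0, 0 and 75 in the PN embryo libraries. In sperm it had 224 and 337 counts. As a share of each library's circRNA counts this was 0.144% and 0.201% in sperm, below the 0.306% of PN embryo replicate 3 and above the other 5 oocyte and embryo libraries, the highest of which was at 0.00833%.

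The sperm columns of replicates 1 and 3 were identical for all 3071 circles (0 unequal values), differed by less than sampling noise and were counted as 1 sample, so n = 2 for sperm. The libraries held 22809 to 24217 circRNA counts in MII oocytes, 23056 to 26200 in PN embryos, and 155731 and 167851 in sperm. A count of 0 allowed a share of up to 0.0115% to 0.0132% in an oocyte or embryo library and of up to 0.00193% and 0.00179% in the sperm libraries (3 counts of the total, for counting error only). Protamine 1 (PRM1), which packs sperm DNA, had a transcript coverage of 22557 to 26768 in the 3 sperm libraries and of 0 to 17.2 elsewhere. Of the oocyte list only KPNA7 and BTG4 (2 of 12) were paired with a coverage value, at 0 to 101 in oocyte and embryo libraries and 0 to 480 in sperm, while the circles of ZP2, ZP3, NLRP5 and KPNA7, oocyte genes too, were found in oocytes or embryos only. Of the other lists, 3 of 12 sperm, 4 of 8 cumulus cell, 1 of 4 leukocyte and 0 of 3 epithelial markers were paired with coverage. The leukocyte marker PTPRC had a coverage of 506, 317 and 0 in sperm and 0 in all oocyte and embryo libraries. The cumulus cell receptor FSHR had 108 to 154 in MII oocytes, 55.8 to 299 in PN embryos and 0 to 0.84 in sperm. The other cumulus markers ran higher in some sperm libraries: VCAN had 0, 1222 and 523 there and 35.3 to 290 in oocytes and embryos, CD44 had 533, 0 and 7.19 against 0 to 78.6, and AMH had 0, 494 and 0 against 0 to 34.9. Among the markers of these lists, VCAN had circle counts of 0, 8 and 0 in the MII oocytes, 0, 0 and 21 in the PN embryos and 0 in sperm, and ODF2, of the sperm list, had 48 in sperm replicate 2 and 0 in all other libraries. The part of other cells in the circle counts was not tested.

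The 81 hosts made up a larger part of the circRNA counts in oocytes and embryos than in sperm, with no overlap between libraries. They took 48.0% ± 0.722 (SD, n = 3) of the circRNA counts of an MII oocyte library, 54.5% ± 1.22 (SD, n = 3) of a PN embryo library, and in sperm 9.78% and 10.4% for the 2 distinct libraries. Sperm also held the fewest circles: 157, 159 and 200 circles of these hosts were found in the MII oocyte libraries, 152, 136 and 167 in the PN embryo libraries, and 56 and 52 in sperm, where found means at least 1 count. The sperm libraries thus held the fewest circles of these hosts at the highest total counts. A host enters by the number of circles found in any library, and 6 oocyte and embryo libraries stand against 2 distinct sperm libraries, so that the rule itself favours hosts of oocytes and embryos.

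**Figure D1:**
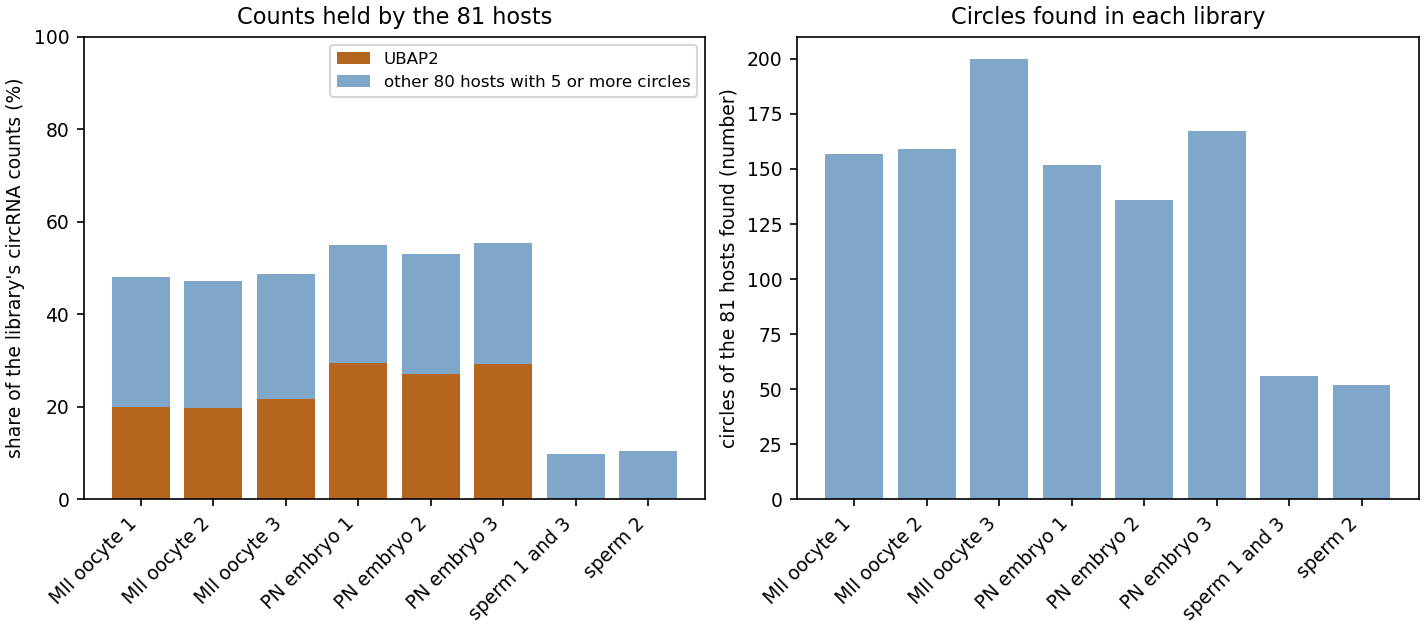
Left, share of each library's circRNA counts (%) held by UBAP2 and by the other 80 hosts with 5 or more circles; right, number of circles of the 81 hosts found in the library, with 1 bar per distinct library. The hosts held 47.3% to 55.4% of the counts of oocyte and embryo libraries and 9.78% and 10.4% in sperm, and UBAP2 was nearly absent from the sperm bars.

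By number of circles, NBAS led with 20. COG5 and OSBPL1A had 15 each, CFAP44, EXOC4 and VPS13B 14 each, CADPS2 13, and MGA and ULK4 11 each. Hosts with 10 circles were the genes named ENSSSCG00000040615 (symbol MALRD1) and ENSSSCG00000002266 (CHD2), TRIM37, USP34, UBAP2 and LRBA. ADAMTS6 and MED12L had 9. There were 11 hosts with 8 circles: APAF1, ATRX, CDC42BPA, HEATR5B, MSH3, MYO9A, PAN3, PHC3, TASOR2, TBC1D32 and TRPM3. Another 12 hosts had 7 circles: ARAP2, B3GALNT2, CSPP1, DENND1B, DNAH7, ERC1, HMCN1, MAP3K15, MELK, TAX1BP1, TBC1D31 and VPS50. The 14 hosts with 6 circles were AHI1, ENSSSCG00000035000, FANCI, KANSL1L, KDM5B, MAN1A2, MKLN1, OVCH1, RPS6KC1, SLC41A2, SMARCC1, TXNDC16, ZMYM2 and ZMYM4. The 26 hosts with 5 circles were ATAD2B, ATP8A2, CIT, CPLANE1, DENND4C, EIF4G3, ENSSSCG00000025005 (B4GALT6), ENSSSCG00000031483 (DNAH14), FNDC3B, IARS2, KIAA1109, KMT2C, MAGI3, MPDZ, MTREX, NRXN3, PDS5B, PLCH1, PTK2, REV1, RUNDC3B, SFMBT1, SND1, TIAM1, TLK1 and VPS13A.

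Of the 608 circles, 210 (34.5%) were found in MII oocytes alone, 172 (28.3%) in PN embryos alone and 131 (21.5%) in both but not in sperm. Over all 3071 circles these shares were 30.7%, 23.8% and 12.8%. Sperm alone held 61 circles (10.03%) and all 3 groups shared 24 (3.95%). MII oocytes and sperm shared 7 (1.15%), and PN embryos and sperm shared 3 (0.493%). In the same order, the shares over all 3071 circles were 24.8%, 2.67%, 1.89% and 3.35%. Most of the 608 circles were not seen again: 385 of them (63.3%) had counts in a single library. For the circles of hosts with fewer than 5 circles this share was 73.4%. Of the 372 circles found in MII oocytes, 34 (9.14%) were present in all 3 of their libraries, against 3.62% for hosts with fewer than 5 circles. In all 3 PN embryo libraries 36 of 330 were present (10.9% against 3.89%). In both distinct sperm libraries 13 of 95 were present (13.7% against 12.4%). The 608 circles included 91 whose highest count was 1 or 2. When circles needed at least 10 counts in some library, 46 hosts still had 5 or more.

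**Figure D2:**
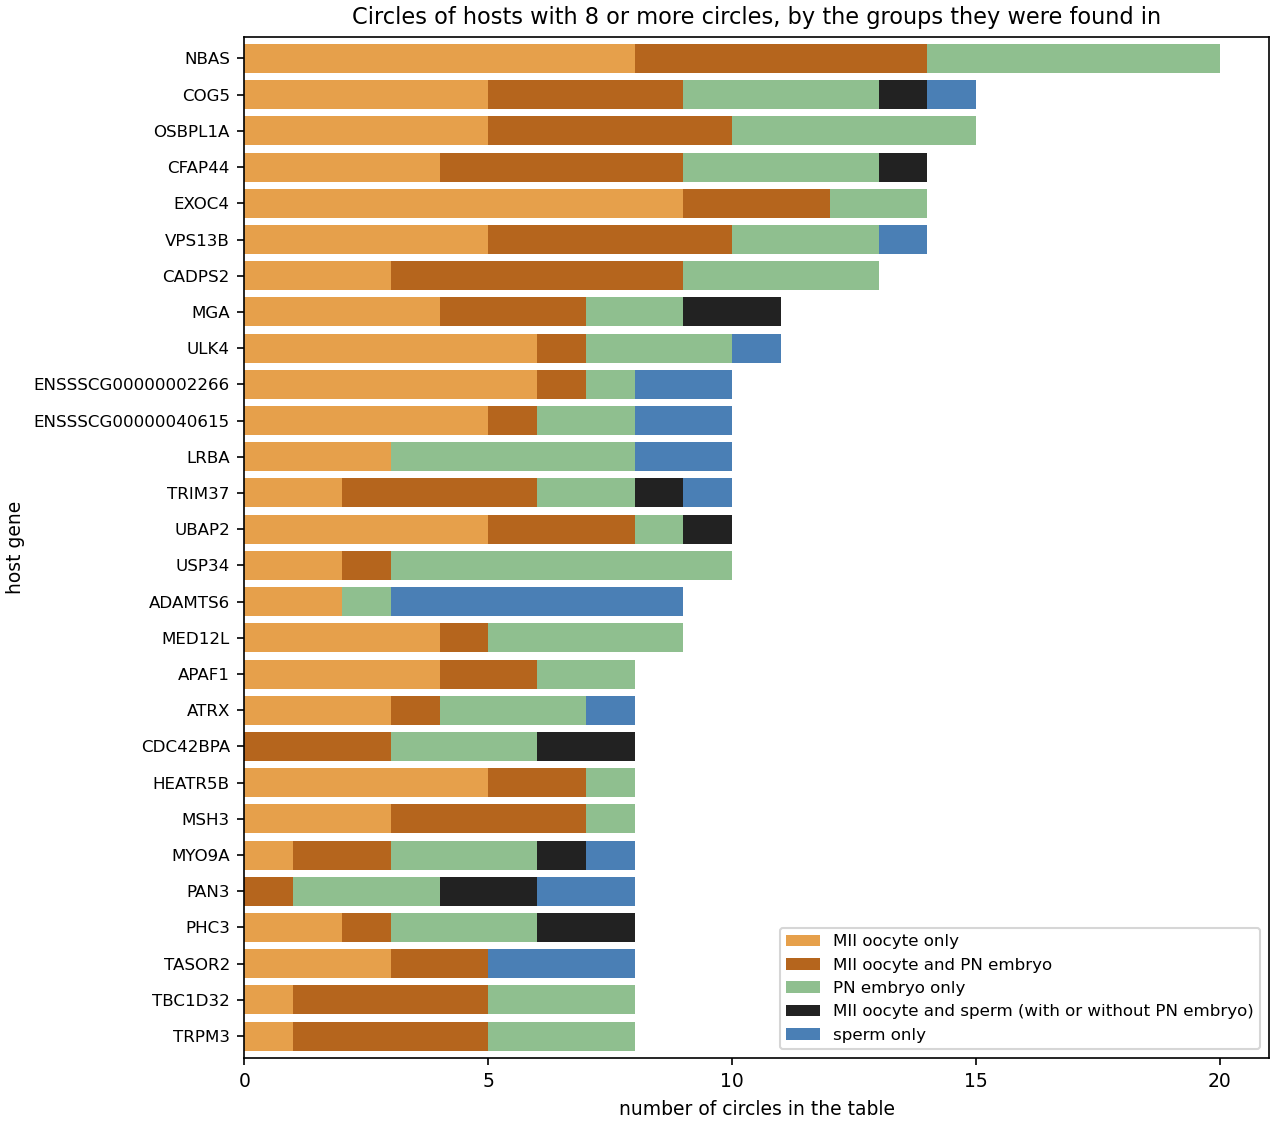
Number of circles of hosts with 8 or more circles (horizontal axis), coloured by the groups in which the circle had at least 1 count. NBAS, OSBPL1A, EXOC4 and CADPS2 had no circle in sperm, whereas 6 of the 9 circles of ADAMTS6 were found in sperm alone.

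UBAP2, a ubiquitin-associated protein, gave more counts than any other host in oocytes and embryos and almost none in sperm. Its 10 circles summed to 4837, 4750 and 4935 counts in MII oocytes and to 6784, 7095 and 7178 in PN embryos. In sperm they summed to 0 counts in replicates 1 and 3 and to 4 in replicate 2. The oocyte and embryo values did not overlap, and the sperm values lay far below both. As a share of the library, UBAP2 took 20.5% ± 1.02 (SD, n = 3) in MII oocytes, 28.6% ± 1.32 (SD, n = 3) in PN embryos, and 0% and 0.00238% in sperm (exact 95% binomial interval of the latter 0.000649% to 0.0061%). The share was 1.4 times as high in PN embryos as in MII oocytes, a two-sided exact permutation test gave p = 0.1, which is the smallest p that 3 against 3 libraries allow, and all 3 embryo libraries were higher than all 3 oocyte libraries.

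The quasi-likelihood test of edgeR on the counts summed by host gave UBAP2 a log2 fold change of 0.48 (SE 0.04) in PN embryos against MII oocytes, with a Benjamini-Hochberg adjusted p of 5.56e-28. That change is below the threshold used for a call, a log2 fold change of at least 1 in size with an adjusted p under 0.05, and UBAP2 passed it under none of 12 other settings, with edgeR or DESeq2 adjusted p between 8.29e-50 and 0.958. The highest of these, 0.958, came from DESeq2, whose fitted log2 fold change of 0.93 was the largest of those under the 12 settings (0.46 to 0.93).

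Within UBAP2 a pair of circles held nearly everything. circRNA450 had 3537, 3592 and 3602 counts in MII oocytes and 5244, 5197 and 5513 in PN embryos, and it accounted for the 4 counts in sperm. circRNA453 had 1217, 1066 and 1329 counts in the MII oocytes, 1522, 1898 and 1553 in the PN embryos and 0 in both sperm libraries. Both circles were higher in every embryo library than in every oocyte library. Their proportions changed little: circRNA450 made 73.1%, 75.6% and 73.0% of the UBAP2 counts in MII oocytes and 77.3%, 73.2% and 76.8% in PN embryos, ranges that overlap (two-sided exact permutation p = 0.2; 0.1 is the smallest possible). Of the other UBAP2 circles, circRNA452 reached 80 counts and circRNA933 reached 82, each in a single MII oocyte library. UBAP2 lies at chromosome 10, 32755707 to 32897260, in the RefSeq annotation of Sscrofa11.1.

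Leaving UBAP2 out brought oocytes and embryos closer together. The other 80 hosts held 34.6% ± 0.361 (SD, n = 3) of the counts that were not of UBAP2 in MII oocytes, 36.2% ± 0.615 (SD, n = 3) in PN embryos, and 9.78% and 10.4% in sperm. The 3 oocyte libraries still lay below the 3 embryo libraries (34.3% to 35.0% against 35.6% to 36.9%), and sperm stayed below both.

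Hosts of membrane trafficking were the largest named group, with 150 circles of 15 hosts (the grouping by role was made after the values were seen and is a description). NBAS, a subunit of a tether for vesicles that return to the endoplasmic reticulum, had 833, 855 and 746 counts in the MII oocytes, 624, 347 and 780 in the PN embryos and 0 in both sperm libraries. The oocyte and embryo ranges overlap, and sperm was below both. Its 20 circles were dominated by circRNA159, with 626, 629 and 308 counts in MII oocytes and 215, 324 and 391 in PN embryos. circRNA160 had 154, 123 and 320 counts in MII oocytes and 191, 19 and 148 in PN embryos, so that it exceeded circRNA159 in MII oocyte replicate 3 only. Against the limit of 3 counts per sperm library, the mean NBAS share was at least 1844-fold lower in sperm than in MII oocytes and at least 1295-fold lower than in PN embryos. Such folds cover counting error only. NBAS lies at chromosome 3, 121882734 to 122242325.

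OSBPL1A, an oxysterol-binding protein of late endosomes, had 659, 354 and 533 counts in the MII oocytes, 571, 415 and 385 in the PN embryos and 0 in sperm. Its leading circle by mean share was circRNA48 in MII oocytes (169, 144 and 241 counts) and circRNA50 in PN embryos (251, 213 and 288 counts). circRNA50 also had 233, 0 and 167 counts in MII oocytes, so that it was above circRNA48 in replicate 1 and below it in replicates 2 and 3. In replicate 2 circRNA632 led, with 0, 154 and 31 counts in the MII oocytes, so that circRNA48 was the top circle in 1 of the 3 oocyte libraries. EXOC4, a subunit of the exocyst, had 145, 240 and 208 counts in MII oocytes and 8, 31 and 134 in PN embryos. All 3 oocyte values lay above all 3 embryo values. CADPS2, which primes dense-core vesicles for release, had 325, 149 and 200 counts in MII oocytes and 180, 239 and 83 in PN embryos. These ranges overlap, and neither EXOC4 nor CADPS2 was found in sperm.

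COG5, a subunit of the Golgi tethering complex, showed different circles in oocytes and sperm. In MII oocytes it had 356, 279 and 290 counts and in PN embryos 268, 479 and 432, with circRNA321 leading in each of these 6 libraries (203, 142 and 189 counts in the MII oocytes; 193, 324 and 278 in the PN embryos). circRNA321 was at 0 in both sperm libraries. Sperm replicate 2 instead held 884 counts of circRNA2874, which was in no other library, and sperm replicates 1 and 3 held 92 counts of circRNA316. circRNA316 was also in oocytes, with 39, 40 and 47 counts, and in embryos, with 21, 19 and 18. COG5 therefore had a single circle in both gametes, and it was the leading circle in neither mean.

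VPS13B, a lipid transfer protein of the Golgi, had 107, 10 and 143 counts in MII oocytes and 171, 141 and 51 in PN embryos. Its only sperm circle, circRNA2351, had 58 counts in replicates 1 and 3 and was found nowhere else. VPS13A, its relative, was the 1 host found in sperm and in PN embryos but not in MII oocytes, with 54, 37 and 0 counts in embryos and with 97 and 0 in sperm, carried by different circles. Across the 9 kinase hosts, 45 circles were found in MII oocytes, 44 in PN embryos and 9 in sperm.

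The 8 hosts of cilia and centrosomes, structures that include the sperm flagellum, had 38 circles in MII oocytes, 35 in PN embryos and 2 in sperm. Of all 608 circles of the 81 hosts, 372 were found in MII oocytes and 95 in sperm. Only CFAP44 and CSPP1 of the 8 were found in sperm. They took 4.16% to 4.72% of the counts in MII oocytes, 2.91% to 6.88% in PN embryos, and 0.0514% and 0.17% in sperm. CFAP44, a protein of cilia and flagella, had 165, 181 and 95 counts in the MII oocytes, 59, 236 and 96 in the PN embryos, and 80 and 0 in sperm. All 80 sperm counts were of circRNA894, which was also in MII oocytes with 0, 47 and 1 counts. AHI1, a protein of the ciliary transition zone, had 338, 570 and 455 counts in the MII oocytes, 358, 626 and 234 in the PN embryos and 0 in sperm. Its single leading circle, circRNA206, led in all 6 oocyte and embryo libraries. TBC1D32, also needed for cilia, had 427, 273 and 207 counts in the MII oocytes, 174, 542 and 272 in the PN embryos and 0 in sperm. CSPP1, a protein of centrosomes and spindle poles, went the other way in mean share, with 0.0503% in MII oocytes and 0.0849% in sperm. It had 0, 32 and 4 counts in the MII oocytes, 10, 47 and 29 in the PN embryos, and 0 and 285 in sperm. All of the latter were of circRNA2754. The lower sperm value equalled the lowest oocyte value, and the higher one lay above all oocyte values.

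Chromatin and transcription hosts were the group with the most circles in sperm: 30 of their 104 circles, from 11 of 15 hosts. Of the 608 circles of the 81 hosts, 95 (15.6%) were found in sperm, and of all 3071 circles 1004 (32.7%). The number is therefore not read as particular to this group. The share of counts held by the chromatin and transcription hosts was 1.83% to 2.89% in MII oocytes, 0.973% to 4.05% in PN embryos, and 4.35% and 2.56% in sperm, so that the ranges overlap. ZMYM2, a zinc finger protein of repressor complexes, had 0, 0 and 12 counts in MII oocytes and 0 in all PN embryo libraries. In sperm it had 2416 and 786 counts, from 5 circles that no other group held. circRNA2556 was in both sperm libraries, with 773 and 244 counts, whereas circRNA2557 (900 counts) and circRNA2555 (743 counts) were in replicates 1 and 3 only and circRNA2930 (533 counts) was in replicate 2 only.

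KDM5B, a histone H3 lysine demethylase, also lay almost wholly in sperm. It had 0, 0 and 3 counts in the MII oocytes, 1, 1 and 3 in the PN embryos, and 1576 and 835 in sperm. Both sperm libraries were above all others, yet the difference did not pass the edgeR test with total-count scaling: the fitted log2 fold change of sperm against MII oocytes was 7.39 (SE 2.28), with an edgeR adjusted p of 0.124. ZMYM2 had the same adjusted p of 0.124 at a fitted log2 fold change of 5.84 (SE 2.28). KDM5B was called higher in sperm under 4 of 11 alternatives, which were TMM scaling, DESeq2, a filter of 3 libraries and leaving out sperm replicate 2. ZMYM2 was called under 2 of 11, which were TMM and leaving out sperm replicate 2. The adjusted p over the alternatives ran from 0.00034 to 0.886 for KDM5B and from 0.00606 to 0.886 for ZMYM2. MGA, a repressor that pairs with MAX, was found in every library, with 119, 65 and 185 counts in the MII oocytes, 67, 129 and 346 in the PN embryos, and 269 and 395 in sperm. As a mean share of the circRNA counts MGA took 0.524% in MII oocytes, 0.732% in PN embryos and 0.204% in sperm. Its circle circRNA786 led in both sperm libraries (269 and 304 counts) and was at 0, 2 and 79 in MII oocytes.

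Other hosts that lay mainly in sperm differed in which circles the 2 sperm libraries held. ADAMTS6, a secreted metalloprotease, had 881 and 1269 counts in sperm and at most 54 elsewhere. Its sperm circles did not overlap: circRNA2611 (426 counts), circRNA2609 (198), circRNA2608 (159) and circRNA2610 (98) were in replicates 1 and 3, and circRNA2967 (645) and circRNA2966 (624) were in replicate 2. DENND1B, an activator of Rab GTPases, had 987 and 3132 counts in sperm and 0 to 112 in the other libraries. Its circRNA930 led in both sperm libraries, with 986 and 2175 counts, and was also in MII oocytes at 0, 85 and 1. In all, 12 hosts had more circles in sperm than in MII oocytes: ADAMTS6, PAN3, KDM5B, SMARCC1, ZMYM2, ATP8A2, EIF4G3, ENSSSCG00000025005, FNDC3B, PTK2, SFMBT1 and VPS13A.

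**Figure D3:**
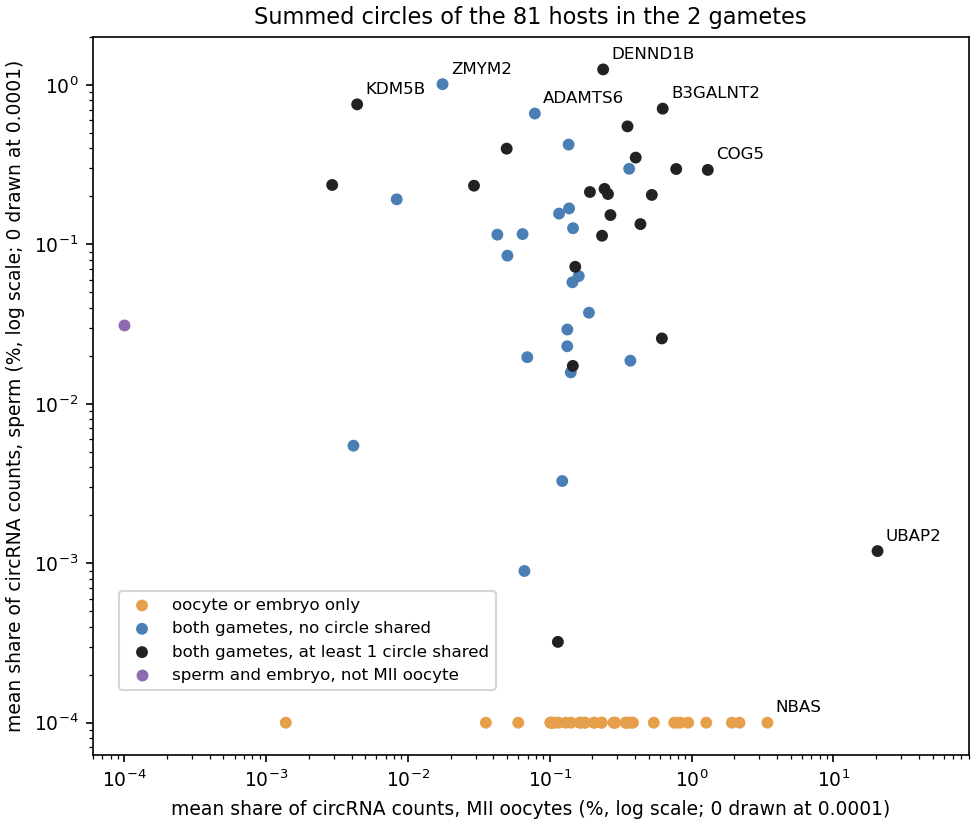
Mean share of circRNA counts (%, log scales) of each host in MII oocytes (horizontal, n = 3) and sperm (vertical, n = 2), with a share of 0 drawn at 0.0001 and colours for whether a circle was found in both gametes. UBAP2 lies alone at the right, with a mean of 20.5% in MII oocytes, the hosts without sperm circles lie along the bottom, and ZMYM2 and KDM5B lie at the upper left.

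Of the 81 hosts, 36 had circles in oocytes or embryos only, among them NBAS, OSBPL1A, EXOC4, CADPS2 and USP34. No sperm circle was found for 6 of the 16 hosts with 10 or more circles. Another 44 hosts were found in both MII oocytes and sperm, and 22 of these shared at least 1 circle between the gametes while 22 shared none. The hosts without a shared circle included VPS13B, ULK4, LRBA, ADAMTS6, ATRX, TASOR2, SMARCC1 and ZMYM2. The shared circles numbered 31, which was 32.6% of the 95 sperm circles and 8.33% of the 372 MII oocyte circles of these hosts. For hosts with fewer than 5 circles, 109 circles were shared, 11.99% of the 909 sperm circles and 9.87% of the MII oocyte circles. These shares stand side by side without a test.

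The 31 shared circles came from 22 hosts, and 24 of them were also found in PN embryos. Many rested on few reads: 10 had at most 5 counts in any MII oocyte library, 5 of these had a single count, in each case in MII oocyte replicate 3, and 3 others had at most 5 counts in any sperm library. Of the 31, 23 were in only 1 of the 2 distinct sperm libraries and 2 were in both sperm libraries and in all 3 MII oocyte libraries. Leaving out a sperm library moved the number of shared circles to 20 (without replicates 1 and 3) or 19 (without replicate 2), and asking for 2 libraries of each group left 5.

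The 2 circles in every MII oocyte and sperm library were circRNA42 of ZMYM4, a zinc finger protein, and circRNA441 of CDC42BPA, a kinase that acts on the actin cytoskeleton. circRNA42 had 157, 54 and 76 counts in the MII oocytes, 26, 0 and 0 in the PN embryos, and 494 and 518 in sperm. The mean share of its host ZMYM4 was 0.404% in MII oocytes, 0.1% in PN embryos and 0.35% in sperm. circRNA441 had 36, 23 and 5 counts in the MII oocytes, 27, 85 and 68 in the PN embryos, and 267 and 1 in sperm. The presence of circRNA441 in both sperm libraries rested on a single count in sperm replicate 2.

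Shared circles with high counts in a single sperm library were the commoner kind. circRNA304 of VPS50, a subunit of an endosome recycling complex, had 146, 36 and 23 counts in the MII oocytes, 38, 123 and 84 in the PN embryos, and 1710 and 0 in sperm. circRNA540 of B3GALNT2, a glycosyltransferase that acts on dystroglycan, had 59, 153 and 192 in MII oocytes, 129, 168 and 136 in PN embryos, and 609 and 0 in sperm. In sperm replicate 2 the leading B3GALNT2 circle was circRNA3004, with 1684 counts and none elsewhere. circRNA439 of CDC42BPA had 77, 19 and 3 counts in the MII oocytes, 171, 112 and 273 in the PN embryos, and 0 and 707 in sperm. Each of these circles was at 0 in 1 of the 2 sperm libraries. In the sperm library that held it, circRNA304 took 1.1% of the counts, above all MII oocyte libraries and the 0.165% to 0.469% of the PN embryos. circRNA439 took 0.421%, above all MII oocyte libraries but below the 0.427% to 1.11% of the PN embryos. The 0.391% of circRNA540 lay within the 0.244% to 0.842% of the MII oocytes and below the 0.555% to 0.641% of the PN embryos.

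The remaining shared circles belonged to hosts of several roles. KDM5B had 3 of them (circRNA1351, circRNA1352 and circRNA1353), each with a single count in MII oocyte replicate 3 and 118 to 769 counts in a sperm library that held it. MAN1A2 also had 3 (circRNA686, circRNA687 and circRNA117). MGA (circRNA785 and circRNA786), DENND1B (circRNA930 and circRNA1350), PHC3 (circRNA389 and circRNA1311) and PAN3 (circRNA418 and circRNA419) had 2 each, as did CDC42BPA. Single shared circles were those of UBAP2 (circRNA450), COG5 (circRNA316), CFAP44 (circRNA894), TRIM37 (circRNA281), MYO9A (circRNA246), B3GALNT2 (circRNA540), VPS50 (circRNA304), FANCI (circRNA604), ZMYM4 (circRNA42), EIF4G3 (circRNA1066), FNDC3B (circRNA1313), PTK2 (circRNA1107), REV1 (circRNA134), SND1 (circRNA1030) and TAX1BP1 (circRNA588). PHC3 is a Polycomb protein, FANCI and REV1 act in DNA repair, and PTK2 is the focal adhesion kinase.

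**Figure D4:**
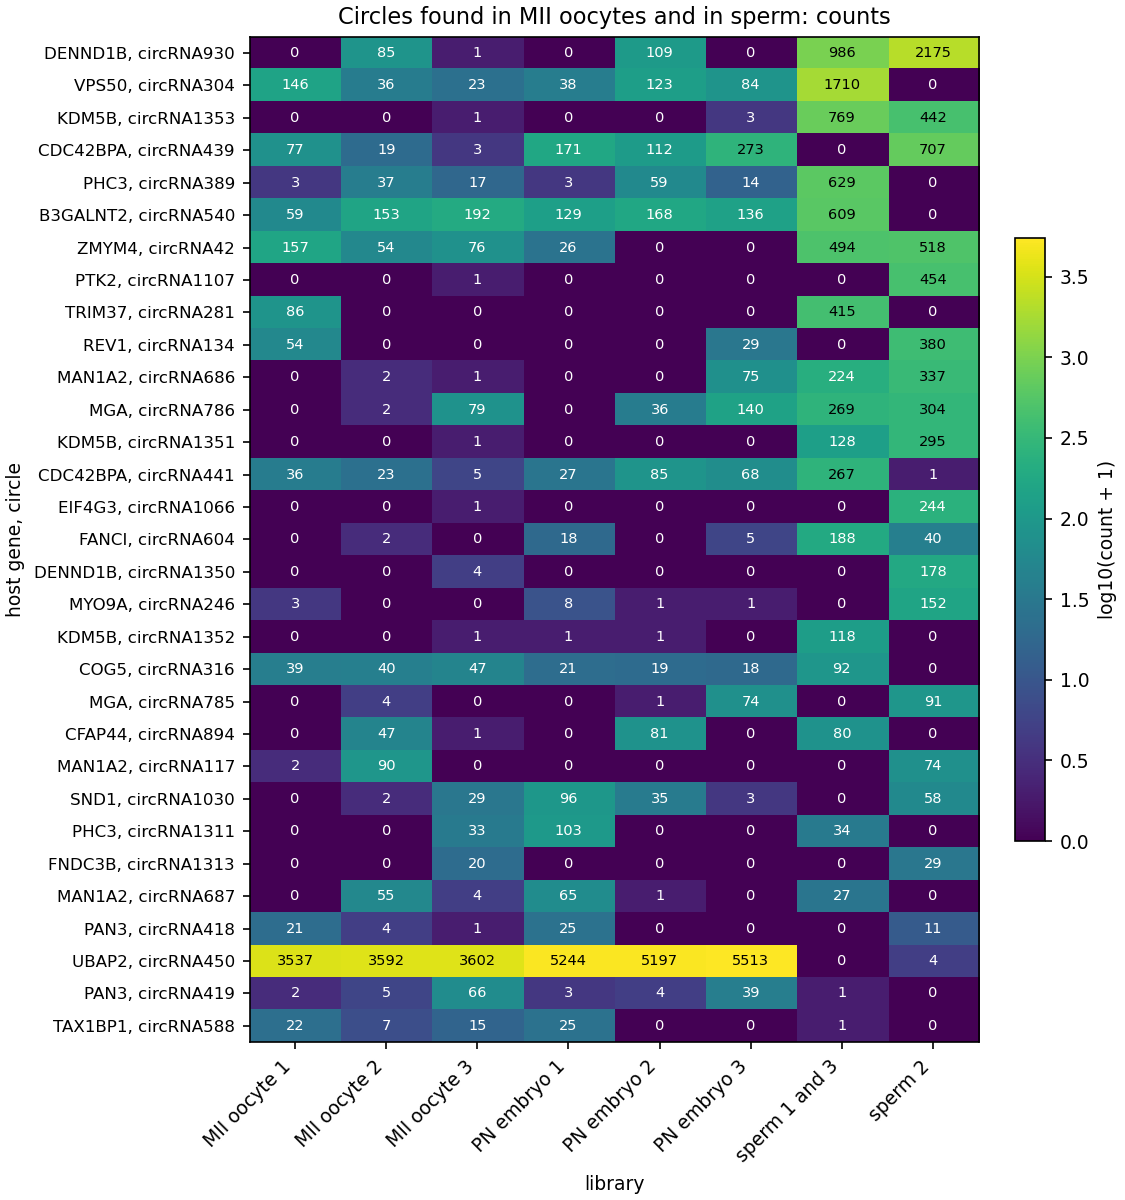
Counts of the 31 circles found in both MII oocytes and sperm (vertical axis, by host and circle) in each distinct library (horizontal axis), coloured by log10(count + 1) and ordered by the highest sperm count. Of the 31 circles, 23 have a 0 in 1 of the 2 sperm columns. The mean share was higher in sperm than in MII oocytes for 17 of the 31. circRNA450 of UBAP2 had 3537 to 5513 counts in oocytes and embryos and 0 and 4 in sperm.

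The dominant circle, the one with the highest mean share in a group, was the same in MII oocytes and sperm for 8 of the 44 hosts found in both: UBAP2, PHC3, DENND1B, TAX1BP1, VPS50, ZMYM4, PTK2 and REV1. For UBAP2 and TAX1BP1 this rests on 4 and 1 sperm counts, and for PTK2 on 1 MII oocyte count of circRNA1107, which tied with another circle. KDM5B had 3 circles tied at 1 count in MII oocytes, including its leading sperm circle, and was counted as different. Without sperm replicates 1 and 3 the number was 5 of 31 hosts, and without sperm replicate 2 it was 6 of 33. Between MII oocytes and PN embryos the dominant circle was the same for 19 of 77 hosts, including NBAS, COG5, CFAP44, EXOC4, UBAP2 and AHI1. Ranked by summed counts, a measure added after seeing the data, it was the same for 18 of 77. CADPS2 was the host that differed: its circRNA582 had 113, 0 and 0 counts in the PN embryos and circRNA585 had 66, 50 and 0.

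Dominance was steady within a group for few hosts. Of 48 hosts with counts in all 3 MII oocyte libraries, 7 had the same top circle in all 3 and 23 had a different one in each. Of 46 hosts with counts in all 3 PN embryo libraries, 11 kept the same top circle, and of 20 hosts in both distinct sperm libraries, 7 did: MGA, TASOR2, DENND1B, FANCI, KDM5B, MAN1A2 and ZMYM4. Among 36 hosts with counts in all 6 oocyte and embryo libraries, 4 had a single top circle throughout: UBAP2 (circRNA450), COG5 (circRNA321), AHI1 (circRNA206) and B3GALNT2 (circRNA540). CFAP44, MAP3K15 and MELK had a different top circle in each of the 6. MELK is a kinase of dividing cells and MAP3K15 a stress kinase.

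In the library where a host was found, its top circle held a median of 78.1% of the host's counts in MII oocytes (196 pairs of host and library), 91.5% in PN embryos (194 pairs) and 100% in sperm (65 pairs). A host with a single circle in a library has a top share of 100%, which held for 57, 75 and 37 of these pairs. Of the pairs with at least 50 counts the median was 70.6% in MII oocytes, 74.7% in PN embryos and 100% in sperm.

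Steady circles came largely from these hosts. Of all 3071 circles, 31 were found in all 6 oocyte and embryo libraries, and 19 of them belonged to the 81 hosts. They were circRNA159 and circRNA160 of NBAS, circRNA206 of AHI1, circRNA209 and circRNA210 of TBC1D32, circRNA29 of NRXN3, circRNA304 of VPS50, circRNA316 and circRNA321 of COG5, circRNA389 of PHC3, circRNA419 of PAN3, circRNA439, circRNA440 and circRNA441 of CDC42BPA, circRNA450 and circRNA453 of UBAP2, circRNA48 and circRNA49 of OSBPL1A, and circRNA540 of B3GALNT2. Of these 19, 8 were also found in sperm.

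Between PN embryos and MII oocytes no circle and no host passed the threshold with edgeR. None of 210 circles of these hosts was called, against 0% of all 675 circles tested in either direction, and 7 of the 210 (3.33%) had an unadjusted p under 0.05, against 16 of all 675 (2.37%). Of 79 hosts none was called, against 0% of all 643 host sums, with a median log2 fold change of 0.07 against -0.12 for all host sums, and 2 (2.53%) had an unadjusted p under 0.05, UBAP2 and ERC1, against 28 of all 643 (4.35%). DESeq2 also called 0 circles and 0 hosts, and 0% of all features. ERC1, a scaffold protein of secretion sites, had 129, 229 and 177 counts in MII oocytes and 12, 7 and 1 in PN embryos, values that do not overlap. Its fitted log2 fold change was -4.75 (SE 1.73), with an edgeR adjusted p of 0.433. circRNA83, the leading ERC1 circle, had 80, 97 and 130 counts in MII oocytes and 0 in all PN embryo and sperm libraries, which is at least 35.5-fold lower in PN embryos against 3 counts per library, and its edgeR adjusted p was 0.386.

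Between sperm and MII oocytes, 9 of the 128 circles of these hosts that passed the filter (of 608) were lower in sperm and none was higher, read against 2.26% lower and 1.65% higher of all 486 circles tested. They were circRNA159 and circRNA160 of NBAS, circRNA206 of AHI1, circRNA209 of TBC1D32, circRNA321 of COG5, circRNA450 and circRNA453 of UBAP2, circRNA48 of OSBPL1A and circRNA83 of ERC1. All but circRNA450 were at 0 in both sperm libraries, and the edgeR adjusted p ran from 0.000579 (circRNA453) to 0.0462 (circRNA83). circRNA453 was at least 2745-fold lower in sperm against 3 counts per library, circRNA159 at least 1177-fold and circRNA83 at least 234-fold. The filter asked for counts in 2 libraries, which let in 92 circles at 0 in sperm and 5 at 0 in MII oocytes. The called circles at 0 in sperm passed it through the MII oocyte libraries alone. The balance of lower and higher calls is therefore only a description. With no filter, 8 of 436 circles were lower and 0 higher. Of the 128, 42 (32.8%) had an unadjusted p under 0.05, against 169 of all 486 (34.8%). With a replicate block edgeR called 0. Without MII oocyte replicate 1 or 2 it called 0 and without replicate 3 it called 6. Calls higher in sperm did appear under other settings. DESeq2 with all libraries called 77 (60.2%), against 54.5% of all circles tested: 70 were lower, against 39.5% of all circles, and 7 higher, against 15%. A filter of 3 libraries left 44 circles, of which 24 were lower and 2 higher. With 2 distinct sperm libraries it cannot keep a circle found in sperm alone, so this balance was partly set in advance. Over all circles this filter called 70 in either direction, so these counts are not read as particular to these hosts.

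Of 78 hosts tested between sperm and MII oocytes, 10 were lower in sperm and none was higher, against 2.08% lower and 0.867% higher of all 577 host sums. These were AHI1, CADPS2, ERC1, EXOC4, IARS2, NBAS, OSBPL1A, TBC1D32, TRPM3 and UBAP2. All but UBAP2 were at 0 in sperm and passed the filter through the MII oocyte libraries alone. For hosts too, the balance of lower and higher calls is only a description. IARS2 is the mitochondrial isoleucyl-tRNA synthetase and had 171, 77 and 136 counts in the MII oocytes, 23, 91 and 76 in the PN embryos and 0 in sperm. TRPM3, a cation channel, had 80, 384 and 103 counts in the MII oocytes, 108, 154 and 48 in the PN embryos and 0 in sperm. The edgeR adjusted p ran from 0.00122 (NBAS) to 0.0452 (IARS2), and among these hosts the fold against MII oocytes ran from at least 291 for IARS2 to at least 1844 for NBAS, leaving out UBAP2, which was not at 0. With a replicate block edgeR called 0 hosts. Without MII oocyte replicate 1, 2 or 3 none of the 10 was called. Their fitted log2 fold changes then ran from -14.67 to -11.50, against -14.40 to -11.74 with all libraries; for hosts at 0 in sperm these depend on the prior count and are no bound. DESeq2 with all libraries called 42 hosts (53.8%), against 47.8% of all host sums. Of these 42, 39 were lower, against 33.3% of all host sums, and 3 higher, against 14.6%. Hosts higher in sperm also numbered 2 with TMM, which called 46 of all host sums in either direction. They numbered 1 with a filter of 3 libraries, which called 44 of all host sums and cannot keep a host found in sperm alone. These counts are not read as particular to these hosts.

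Between sperm and PN embryos, 6 of 106 circles were lower in sperm and none was higher, against 1.55% lower and 0% higher of all 453 circles. Of the 106, 74 were at 0 in sperm and 5 at 0 in PN embryos, and with no filter 6 of 398 circles were lower and 0 higher. Of the 6 calls, 5 were at 0 in sperm and passed the filter through the PN embryo libraries alone. The balance of lower and higher calls is therefore only a description. The calls were circRNA159, circRNA206, circRNA321, circRNA450, circRNA453 and circRNA50, with edgeR adjusted p from 0.0058 (circRNA453) to 0.0302. circRNA453 was at least 3623-fold lower in sperm than in PN embryos, circRNA206 at least 854-fold and circRNA50 at least 552-fold. Of 76 hosts, AHI1, NBAS, OSBPL1A, TBC1D32 and UBAP2 were lower, 5 in all and none higher, against 1.1% lower and 0.368% higher of all 544 host sums, with adjusted p from 0.0256 (UBAP2) to 0.0358 (TBC1D32). All of these hosts but UBAP2 were at 0 in sperm and passed the filter through the PN embryo libraries alone. For hosts too, the balance of lower and higher calls is only a description. With a replicate block edgeR called 0 circles and 1 host, UBAP2. Without PN embryo replicate 1, 2 or 3 it called 0 circles and 0 hosts. The fitted log2 fold changes of NBAS and circRNA453 then stayed about as large. They were -14.42 to -13.88 for NBAS against -13.90 and -15.66 to -15.55 for circRNA453 against -15.38. Both were at 0 in sperm, so these values depend on the prior count and are no bound. DESeq2 called 74 circles (69.8%, against 55.8% of all circles) and 37 hosts (48.7%, against 30.9% of all host sums). Of the circles, 71 were lower, against 45.3% of all circles, and 3 higher, against 10.6%. Of the hosts, 36 were lower, against 28.9% of all host sums, and 1 higher, against 2.02%. A filter of 3 libraries also called 2 hosts higher in sperm, and no filter 1. Over all host sums these settings called 42 and 15 in either direction. The filter of 3 libraries cannot keep a host found in sperm alone. The comparisons of sperm with oocytes and with embryos share the sperm libraries.

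Transcripts listed under the name of a host gave a second readout of the locus. The deposited lncRNA table held 400 transcripts under 64 of the 81 host names, with coverage in all 9 libraries (here the 3 sperm libraries differ); none of them is annotated there as a lncRNA, and how the coverage was scaled between libraries was not given in the sources used here. Of 31 such hosts without a sperm circle, 23 reached a coverage of 1 or more in some sperm library and 9 in all 3. AHI1 had coverages of 1397, 1239 and 546 in sperm and 0, 80.6 and 0 in MII oocytes, whereas its circles were found in oocytes and embryos only. NBAS had coverages of 282, 186 and 328 in MII oocytes and of 0, 0.11 and 0.53 in sperm, so that transcripts and circles lay on the same side. EXOC4 had transcript coverage in both gametes, at 1364, 1711 and 1300 in MII oocytes and 1377, 1618 and 1524 in sperm, and circles in oocytes and embryos only.

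The hosts spanned long genes. In the RefSeq table of Sscrofa11.1, 76 of the 81 hosts had a span (93.8%), with a median of 204 kb and a range from 54.2 kb (IARS2) to 1647 kb (NRXN3, a synaptic adhesion protein). The median was 290 kb for the 16 hosts with 10 or more circles and 96.6 kb for hosts with fewer than 5. EXOC4 spans 802 kb and VPS13B 735 kb, whereas MGA has 11 circles in 107 kb and CFAP44 14 in 157 kb. Across the 76 hosts the number of circles and the span had a Spearman rho of 0.17, and across all 1564 hosts with a span rho was 0.28, given as descriptions across genes, which share the libraries and are not replicates.

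**Figure D5:**
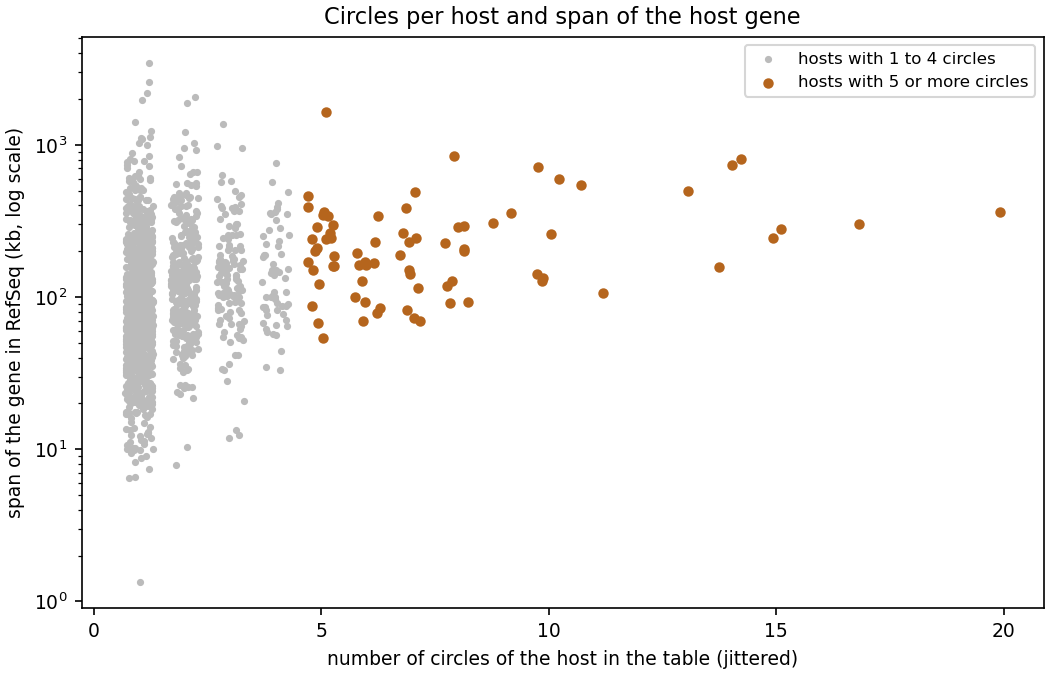
Span of the host gene in RefSeq (kb, log scale) against the number of its circles in the table (jittered), with hosts of 5 or more circles in brown and hosts of 1 to 4 circles in grey. The brown points have a median of 204 kb and the grey ones of 96.6 kb, and all 16 hosts with 10 or more circles span more than 100 kb.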

How the data were processed

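RNA of pooled cells was depleted of ribosomal RNA and sequenced as strand-specific libraries. The authors deposited whole-number counts per circRNA and library, with a host name for each circRNA, and transcript coverage values per library in the lncRNA table. The submitters' processing notes name cutadapt 1.9, HISAT2 2.0.4, TopHat2 2.0.4, StringTie 1.3.4d, edgeR and the build Sscrofa11.1. The circRNA caller was not given in the sources used here. Circle positions and exons listed in the study's supplement were not used here, nor was a genome sequence, so no circle sequence is printed. Reads without molecular identifiers are not independent molecules, and intervals and limits cover counting error only. The mRNA table was not used here, since its loci pair with no host name. A table of host names and RefSeq gene models of Sscrofa11.1 gave symbols and spans, and 76 of the 81 hosts matched.

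Members are the circles whose host name occurs 5 or more times, and all entered the counts and fits; a host withheld from this text is not reported here by name. Members, roles and lists were chosen with earlier results of these data known. Named in full were the hosts with the most circles, every circle found in both MII oocytes and sperm, and every circle or host past the threshold; other hosts were given by name and count. ERC1 in embryos against oocytes, and the sperm hosts ZMYM2, KDM5B, ADAMTS6 and DENND1B, were singled out after their values were seen. The quasi-likelihood test of edgeR 4.0.16 in R 4.3.3 was fitted to the 2 groups of each comparison, over all circles or host sums with counts above 0 in at least 2 libraries. Counts were scaled by the total circRNA count, p-values were adjusted by Benjamini-Hochberg over all features tested, and a call needed an adjusted p under 0.05 and a log2 fold change of at least 1 in size. The SE printed with an edgeR log2 fold change is its size divided by the square root of the F statistic, not a fitted error. Alternatives were TMM scaling, DESeq2 1.42.0, other filters, a replicate block, leaving out each library and, added after the data were seen, totals without UBAP2. Spans, shares and exact permutation tests were computed in Python 3.11.15 with scipy 1.17.1.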

Additional observations from a re-analysis of the deposited data

How the results depend on the processing

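Between PN embryos and MII oocytes the number of circles and of hosts called stayed at 0 under all 12 alternatives. For sperm against MII oocytes, 9 circles were called, and DESeq2 called 77, a filter of 3 libraries 26 and the replicate block 0, with 0 to 10 when a library was left out. The 10 hosts became 17 with TMM, 42 with DESeq2, 21 with 3 libraries and 0 with the replicate block, and ranged from 0 to 13 when a library was left out. For sperm against PN embryos, the 6 circles became 74 with DESeq2, 16 with 3 libraries and 0 with the replicate block, and ranged from 0 to 9 when a library was left out. The 5 hosts became 37 with DESeq2, 17 with 3 libraries, 8 with no filter and 1 with the replicate block, and ranged from 0 to 8. Over all circles, sperm against MII oocytes gave 19 calls, 265 with DESeq2 and 70 with 3 libraries. Over all host sums it gave 17 calls, 46 with TMM, 276 with DESeq2 and 44 with 3 libraries. Sperm against PN embryos gave 7, 253 and 44 circles, and 8, 7, 168 and 42 host sums, in the same order. A filter of 3 libraries tests fewer features and cannot keep those found in sperm alone. Leaving out a library leaves fewer samples, and the cause of the other shifts was not tested. No fitted change of a called circle or host turned its sign: of their values under the alternatives, 213 kept their side of the threshold and 117 did not. Without a sperm library a single distinct one is left, which edgeR then takes to vary like the other group.

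Same-numbered oocyte and embryo libraries deviated together with r of -0.004, 0.11 and 0.18 over 675 circles, so the numbers were not taken as pairs. The 31 circles shared by the gametes became 18 at 10 counts in a library and 5 with 2 libraries of each group, and ranged from 19 to 29 when a library was left out. The 8 hosts with the same dominant circle became 5 at 10 counts and ranged from 5 to 8. With circles of at least 10 counts in some library, 46 of the 81 hosts kept 5 or more. Totals without UBAP2 changed no count of calls among the 81 hosts and their circles, while the calls over all features went from 19 to 17 circles and from 17 to 15 hosts for sperm against MII oocytes, and from 8 to 7 hosts for sperm against PN embryos. For counting error only, depth limits what a 0 means to shares below 0.0115% to 0.0132% in oocytes and embryos and 0.00179% to 0.00193% in sperm. Libraries of a group can differ by far more: circRNA304 took 1.1% of the counts in sperm replicates 1 and 3 and 0% in replicate 2. The folds given against these limits likewise leave out the spread between libraries.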

Other observations

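Some features of the hosts fall outside the comparisons. The 4 ubiquitin hosts (UBAP2, TRIM37, USP34 and TAX1BP1) took 20.6% to 22.3% of the counts in MII oocytes and 27.6% to 30.4% in PN embryos, nearly all of it from UBAP2. In sperm they took 0.268% in replicates 1 and 3 and 0.00238% in replicate 2. TRIM37, a ubiquitin ligase of the centrosome, supplied 417 of the 418 counts in replicates 1 and 3, of which 415 were of circRNA281. The same circle had 86 counts in MII oocyte replicate 1 and none in the other oocyte and embryo libraries. As a mean share, TRIM37 took 0.436% in MII oocytes, 0.456% in PN embryos and 0.134% in sperm.

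Among the 5 hosts of RNA and translation (PAN3, EIF4G3, IARS2, MTREX and SND1), EIF4G3 and PAN3 had the widest gaps between the sperm libraries, whereas IARS2 was at 0 in both and MTREX at 0 and 3 counts. EIF4G3, a translation initiation scaffold, had 0 counts in sperm replicates 1 and 3 and 1336 in replicate 2, spread over circRNA2716 (785), circRNA2717 (307) and circRNA1066 (244). PAN3, a subunit of a poly(A) nuclease, had 465 counts in replicates 1 and 3 and 11 in replicate 2. In MII oocytes EIF4G3 had 0, 0 and 34 counts and PAN3 49, 38 and 101. What sets the libraries apart was not tested.

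None of the 46 entries named ciRNA, the name used for intronic circles, belonged to the 81 hosts.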
